A study of Mus musculus with 6 samples.

Results

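The miR-29 family was followed in the liver small RNA of mice on a high-fat diet. Its members were the entries of the expression table named mmu-miR-29a, mmu-miR-29b or mmu-miR-29c, with either arm of the hairpin and any locus number. This gave 7 of the 1039 entries of the table, namely mmu-miR-29a-3p, mmu-miR-29b-3p, mmu-miR-29c-3p, mmu-miR-29a-5p, mmu-miR-29b-1-5p, mmu-miR-29b-2-5p and mmu-miR-29c-5p, and all 7 passed the filter on low values (a mean above 1 RPM, that is reads per 1000000 miRNA reads of the library, in at least one group). The rule uses names alone, and the family was picked for description with earlier results of these data known.

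Each mouse gave 1 library, with 3 mice in each of the J and M groups. All were wild type ICR mice, an outbred stock, 30 weeks old at sampling, and all ate a high-fat diet throughout. After 12 weeks of the diet the J group received JTXK granule by gavage for 8 weeks, while sterile water was given to the M group. JTXK (Jiang Tang Xiao Ke) granule is a herbal formula for diabetes made from Rehmannia, Cornus, ginseng, Coptis, Salvia and Pueraria among others. Both groups carried the diet, so the comparison of J with M asks what the granule changed in mice on this diet, and no chow-fed library was analysed here. The sequenced mice were a selection from larger groups, and the mice differ in genotype because the stock is outbred.

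A miRNA hairpin yields a 5p and a 3p strand, of which one is usually kept by an Argonaute protein and the other is mostly degraded. The kept strand pairs through its seed, bases 2 to 8, with sites in mRNAs and lowers their output. The 3p strands of miR-29 are best known for repressing collagens and other matrix proteins in fibroblasts and hepatic stellate cells, where the family falls during fibrosis. In liver, muscle and fat they are also known to rise in diabetes and obesity and to dampen insulin signalling, and in hepatocytes to affect lipid and glucose synthesis.

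The sequences show why the members are treated as one family and why their reads have to be told apart with care. The seed is in capitals in each mature sequence, written 5′ to 3′ from RefSeq on GRCm38, in which all 7 members were found.

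mmu-miR-29a-3p: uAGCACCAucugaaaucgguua
mmu-miR-29b-3p: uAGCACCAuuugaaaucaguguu
mmu-miR-29c-3p: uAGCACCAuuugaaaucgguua
mmu-miR-29a-5p: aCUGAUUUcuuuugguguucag
mmu-miR-29b-1-5p: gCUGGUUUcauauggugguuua
mmu-miR-29b-2-5p: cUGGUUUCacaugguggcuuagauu
mmu-miR-29c-5p: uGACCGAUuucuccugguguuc

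The 3p strands share the seed AGCACCA, which no other of the 1679 mature mouse miRNA names in the RefSeq table carries. Counted from 1 at the 5′ end, mmu-miR-29a-3p and mmu-miR-29c-3p differ by C10U alone (the base of mmu-miR-29a-3p first). mmu-miR-29b-3p and mmu-miR-29c-3p are identical over their first 17 bases and differ by A18G, G21U and U22A (the base of mmu-miR-29b-3p first), and mmu-miR-29b-3p is 1 base longer. The ending of miR-29b is known from other cells as a signal that takes the miRNA to the nucleus. The 4 strands of the 5p side each have a seed of their own. That of mmu-miR-29b-2-5p also occurs in mmu-miR-6338, which has no entry in the table, and the other 5p seeds occur in no other name.

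The family has 4 genes in a pair of clusters. Mir29a (chr6:31062660-31062747, GRCm38, minus strand) lies 275 bases from Mir29b-1 (chr6:31063023-31063093, minus strand), which overlaps an exon of the noncoding RNA Gm27019. Mir29b-2 (chr1:195037040-195037120, plus strand) lies 426 bases from Mir29c (chr1:195037547-195037634, plus strand). Both chromosome 1 hairpins sit in an exon of the noncoding RNA A330023F24Rik and opposite a UTR of Cd46, a complement regulator read from the other strand. mmu-miR-29b-3p is the same from either cluster, so its reads cannot be divided between Mir29b-1 and Mir29b-2, whereas the 5p strands of the pair can be told apart.

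The libraries held 2626353 to 4314134 miRNA reads, and 3 reads corresponded to 0.695 to 1.14 RPM. Hepatocyte miRNAs fixed as markers (miR-122, miR-192 and miR-194) summed to 329007 to 379781 RPM in each library and none was at 0. M group replicate 1 stood apart, and its sample title alone has the prefix MX1 (MX2 or GJ2 in the rest, meaning not given). Its correlation of log2(RPM + 1) with the other libraries was 0.931 to 0.941, and of the 548 tested miRNAs, 37 had in it a level 4-fold or more over that of any other library, against 0 to 3 in each of the rest. The bile duct markers summed to 4298 RPM there and 950 to 2379 RPM in the other 5 libraries. The leukocyte markers summed to 763 to 1108 RPM in the J libraries and to 1383, 1461 and 4782 RPM in the M libraries, the last in M group replicate 1. The groups did not overlap in this sum. All 6 leukocyte markers had a log2 fold change below 0 (median -0.84 beside -0.13 for all 548), and 1 of them, mmu-miR-342-3p, was past the thresholds applied to the family, which 5.29% of all tested miRNAs passed. Taken singly, mmu-miR-342-3p did not overlap between the groups, whereas each of the other leukocyte markers did. Among all tested miRNAs, each taken singly, groups that do not overlap were seen for 13.5%. Without M group replicate 1 the median of the leukocyte markers was -0.44 beside -0.08 for all, and 0 of 6 passed the thresholds. There mmu-miR-150-5p was at 0.007 and mmu-miR-342-3p at -1.69 (unadjusted p = 0.0585 by limma). In tissue RNA, fewer cells of a type and less of the miRNA per cell cannot be told apart.

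Between 0.340% and 0.496% of a library belonged to the family, and most of it was one strand of one gene. mmu-miR-29a-3p took 86.0% to 90.6% of the 3p reads of the family, mmu-miR-29c-3p 7.23% to 11.4% and mmu-miR-29b-3p 2.18% to 2.86%. By mean RPM over the 6 libraries, mmu-miR-29a-3p ranked 33 among all 1039 entries, mmu-miR-29c-3p 76 and mmu-miR-29b-3p 132. The 5p strands ranked between 280 (mmu-miR-29c-5p) and 484 (mmu-miR-29b-1-5p).

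The order of the levels in RPM was mmu-miR-29a-3p, mmu-miR-29c-3p, mmu-miR-29b-3p, mmu-miR-29c-5p, mmu-miR-29b-2-5p, mmu-miR-29a-5p and mmu-miR-29b-1-5p. The first 5 were in this order in 6 of 6 libraries, and their ranges over the libraries did not overlap. mmu-miR-29b-2-5p exceeded mmu-miR-29a-5p in 4 of 6 libraries and their ranges overlapped, so this pair was not separated by the spread between libraries. mmu-miR-29a-5p exceeded mmu-miR-29b-1-5p in 6 of 6 libraries, although the ranges overlapped (1.17 to 3.63 and 0.464 to 1.95 RPM). The level of mmu-miR-29a-3p was 7.54 to 12.5 times that of mmu-miR-29c-3p within a library and 30.7 to 41.5 times that of mmu-miR-29b-3p.

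**Figure D1:**
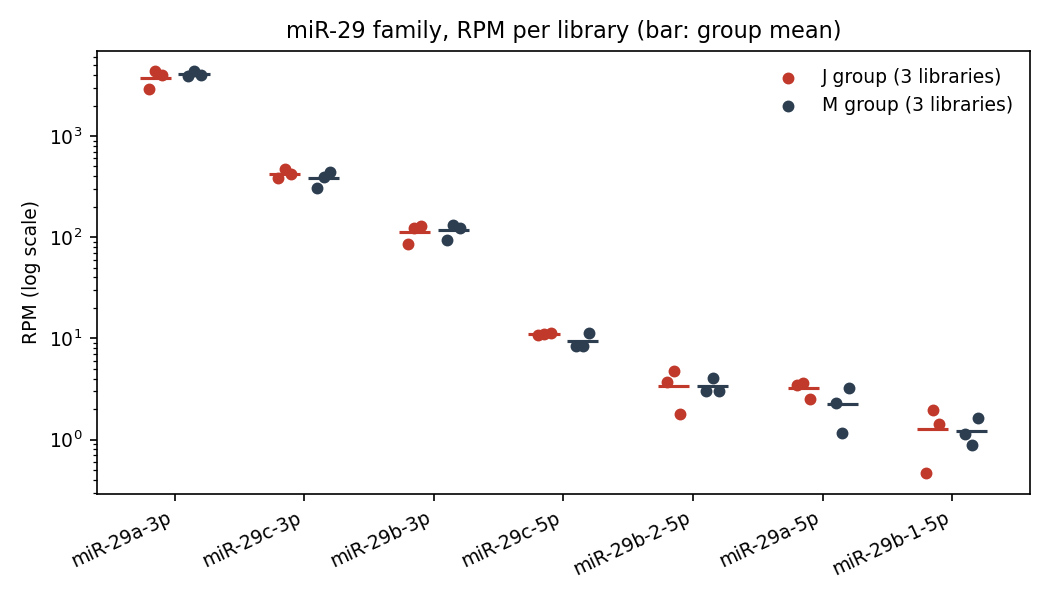
RPM of the 7 miR-29 strands (log scale) in each of the 3 J group libraries (red) and 3 M group libraries (dark blue), with a bar at each group mean. The strands spread from 0.464 to 4401 RPM, and the J and M points overlap for every strand.

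None of the 7 members passed the test of the J group against the M group, and the J and M libraries overlapped for each of them. Limma, a linear model with variances moderated across miRNAs, was fitted to log2(RPM + 1) of all 548 tested miRNAs, and a miRNA was called where its absolute log2 fold change was above 0.3 and its unadjusted p below 0.05, as the study set them. It called 0 of the 7 members, against 29 of 548 miRNAs (5.29%, 8 higher and 21 lower in the J group). The J libraries lay wholly above or below the M libraries for 0 of the 7 members, against 74 of 548 (13.5%). No miRNA had a Benjamini-Hochberg adjusted p under 0.05 in limma (29 had an unadjusted p under 0.05, and DESeq2 on the recovered reads gave 2 an adjusted p under 0.05, neither in the family). The median log2 fold change of all 548 was -0.13, and it moved to -0.04 with median-of-ratios scaling and to 0.05 with quantile normalization, so the members are also set against it. With 2626353 or more reads per library the 3p strands rested on 245 to 17068 reads each. Each mouse gave 1 library, so differences between mice and between library preparations cannot be told apart.

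mmu-miR-29a-3p, the main strand of the family, had 2909, 4344 and 3999 RPM in J group replicates 1 to 3 and 3876, 4401 and 3973 RPM in M group replicates 1 to 3. One library, J group replicate 1, lay below the rest, and the other 5 were close together whatever their group. The J mean was 3751 ± 749 RPM and the M mean 4083 ± 279 RPM (SD, n = 3 each). The log2 fold change was -0.14 (95% interval -0.59 to 0.30, adjusted p = 0.81 by limma), almost the median of all miRNAs. Without J group replicate 1 it was 0.03, and its sign was also positive with quantile normalization (0.09).

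mmu-miR-29c-3p differs from it by one base outside the seed and comes from the other cluster. It had 386, 471 and 420 RPM in the J libraries and 309, 396 and 442 RPM in the M libraries. The lowest value was that of M group replicate 1, and the remaining values of both groups were mixed. With a J mean of 426 ± 42.9 RPM and an M mean of 383 ± 67.5 RPM (SD, n = 3 each), the log2 fold change was 0.17 (95% interval -0.34 to 0.67, adjusted p = 0.81 by limma), or 0.30 above the median of all miRNAs. It was 0.02 without M group replicate 1, the library with the high leukocyte markers, whose part in this value was not tested beyond leaving it out. Under the 16 alternatives it stayed above 0, with a largest value of 0.48 (quantile normalization) and a smallest unadjusted p of 0.124.

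mmu-miR-29b-3p, which both clusters can supply, had 86.0, 123 and 130 RPM in the J libraries. In the M libraries it had 93.3, 132 and 125 RPM. Each group held one low library, J group replicate 1 and M group replicate 1, and the other 4 lay together. The means of 113 ± 23.6 and 117 ± 20.6 RPM (SD, n = 3 each) gave a log2 fold change of -0.05 (95% interval -0.68 to 0.57, adjusted p = 0.96 by limma), and its sign changed under 7 of 16 alternatives.

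mmu-miR-29c-5p was the most abundant of the minor strands. It had 10.9, 11.2 and 11.4 RPM in the J libraries (32 to 47 reads) and 8.38, 8.50 and 11.4 RPM in the M libraries (22 to 49 reads). The J values were nearly equal, and M group replicate 3 reached them while the other M libraries were lower. The log2 fold change was 0.23 (95% interval -0.39 to 0.86, adjusted p = 0.79 by limma). The counting intervals alone (95% Wilson) ran from 8.19 to 14.5 RPM in J group replicate 1 and from 5.53 to 12.7 RPM in M group replicate 1. Under the 16 alternatives it ranged from 0.13 (with an added 10 RPM) to 0.36 (without M group replicate 3), with no value past the thresholds.

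The other 5p strands rested on few reads. The 95% intervals given with their fold changes are from limma and reflect the spread between libraries. Wilson intervals on these reads cover counting error only. mmu-miR-29a-5p had 3.48, 3.63 and 2.50 RPM in the J libraries (15, 13 and 7 reads) and 2.28, 1.17 and 3.26 RPM in the M libraries (6, 4 and 14 reads). M group replicate 2 was the lowest, and M group replicate 3 lay among the J libraries. The log2 fold change of 0.42 was the highest of the family in size and the only one beyond 0.3 (95% interval -0.44 to 1.27, adjusted p = 0.71 by limma). It depends on the added RPM, being 0.59 with 0.1 RPM and 0.11 with 10 RPM. Without M group replicate 2 it was 0.16, and without M group replicate 3 it was 0.64 (unadjusted p = 0.149).

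mmu-miR-29b-2-5p had 3.71, 4.75 and 1.78 RPM in the J libraries (16, 17 and 5 reads) and 3.05, 4.10 and 3.03 RPM in the M libraries (8, 14 and 13 reads). The J libraries held both the highest and the lowest value. The log2 fold change was -0.05 (95% interval -0.91 to 0.82, adjusted p = 0.97 by limma). mmu-miR-29b-1-5p, the rarest member, rested on 2, 7 and 4 reads in the J group (0.464, 1.95 and 1.43 RPM) against 3, 3 and 7 in the M group (1.14, 0.880 and 1.63 RPM). With 3 of the 6 libraries at or under 3 reads, its fitted log2 fold change of -0.0045 depends on the added 1 RPM, and no difference could be detected at this depth (95% interval -0.92 to 0.91, adjusted p = 0.995 by limma).

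**Figure D2:**
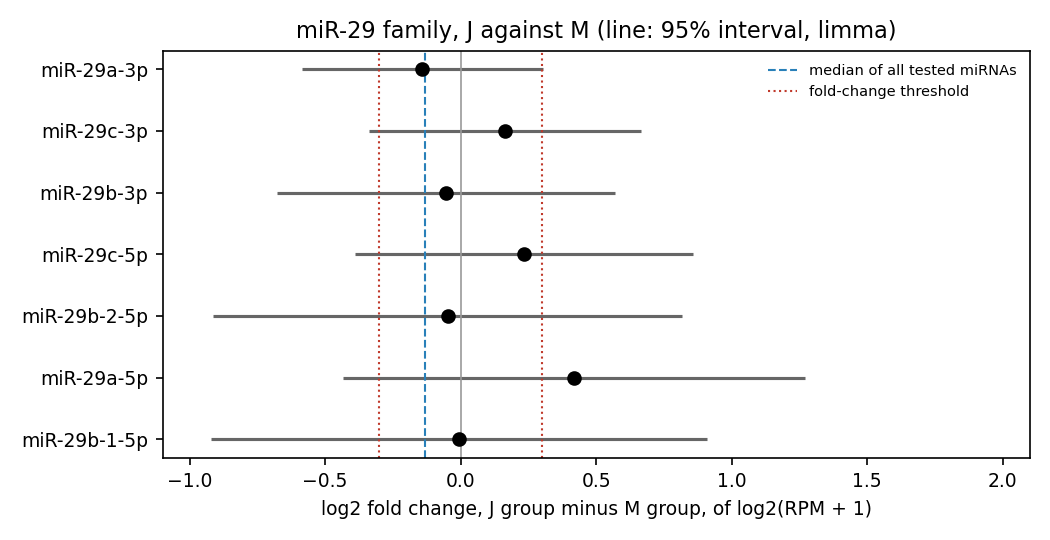
Log2 fold change of each miR-29 strand, J group minus M group, on the log2(RPM + 1) scale from limma with 3 libraries per group, with its 95% interval. All 7 intervals include 0 (solid line), the dashed line marks the median of all 548 tested miRNAs (-0.13), dotted lines mark the fold-change threshold of 0.3 in each direction, and the widest intervals are those of the 5p strands of miR-29a and miR-29b.

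Summed over the members, the family had 3399, 4959 and 4567 RPM in the J libraries. In the M libraries it had 4293, 4944 and 4559 RPM. The ratio of the group means, J over M, was 0.937, and J group replicate 1 again stood lowest, for without it the ratio was 1.04.

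Shares within a library do not depend on how the library is scaled. 5 of them were compared between the groups by an exact two-sided permutation test over libraries, in which 3 against 3 cannot give a p below 0.1. One share set the major strands of the clusters against each other. mmu-miR-29c-3p made up 11.7%, 9.78% and 9.51% of the mmu-miR-29a-3p and mmu-miR-29c-3p reads in J group replicates 1 to 3, against 7.39%, 8.26% and 10.01% in M group replicates 1 to 3. M group replicate 3 fell between the J libraries, and the other M libraries were below all of them. The difference of 1.78 percentage points (10.3% ± 1.20 against 8.55% ± 1.34, SD, n = 3 each) had p = 0.3 by the exact permutation test (Benjamini-Hochberg p = 0.75 over the 5 shares). With a library left out it ranged from 1.09 points (without J group replicate 1) to 2.51 points (without M group replicate 3), and was 1.20 points without M group replicate 1. The reads behind each share number 10991 to 18967. The 95% Wilson interval, of counting error only, was 9.59% to 10.4% in M group replicate 3 and 6.91% to 7.89% in M group replicate 1.

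The share of mmu-miR-29b-3p in the 3p reads was steadier. It was 2.54%, 2.48% and 2.86% in the J group against 2.18%, 2.68% and 2.74% in the M group, a difference of 0.09 percentage points (exact permutation test, p = 0.8, Benjamini-Hochberg p = 0.90). The groups overlapped, with M group replicate 1 the lowest library.

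The 3p strand held most reads of miR-29a, of miR-29c and of miR-29b with its genes pooled, and the 5p share was lowest for miR-29a. The 5p strand made up 0.0721% of the miR-29a reads, 2.49% of the miR-29c reads and 3.96% of the miR-29b reads (means over the 6 libraries, both miR-29b 5p strands summed). In 6 of 6 libraries the miR-29a share (0.0266% to 0.119%) was below the shares of miR-29b (2.41% to 5.18%) and miR-29c (2.1% to 2.75%). Of the miR-29b 5p reads, 55.6% to 88.9% belonged to mmu-miR-29b-2-5p, the strand from the chromosome 1 cluster, but a library held only 9 to 24 such reads, and in J group replicate 3, with 5 of 9, the 95% Wilson interval was 26.7% to 81.1%.

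The 5p shares of the groups overlapped for each gene. For miR-29a the mean was 0.0884% ± 0.0288 in the J group and 0.0558% ± 0.0278 in the M group (SD, n = 3 each, exact permutation test p = 0.2, Benjamini-Hochberg p = 0.75). The difference of 0.0326 percentage points was 0.0171 without J group replicate 1 and 0.018 without M group replicate 2. For miR-29b the mean was 4.07% ± 1.47 and 3.84% ± 0.392 (exact permutation test, p = 0.9, Benjamini-Hochberg p = 0.90), and for miR-29c 2.57% ± 0.225 and 2.42% ± 0.282 (exact permutation test, p = 0.5, Benjamini-Hochberg p = 0.83).

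**Figure D3:**
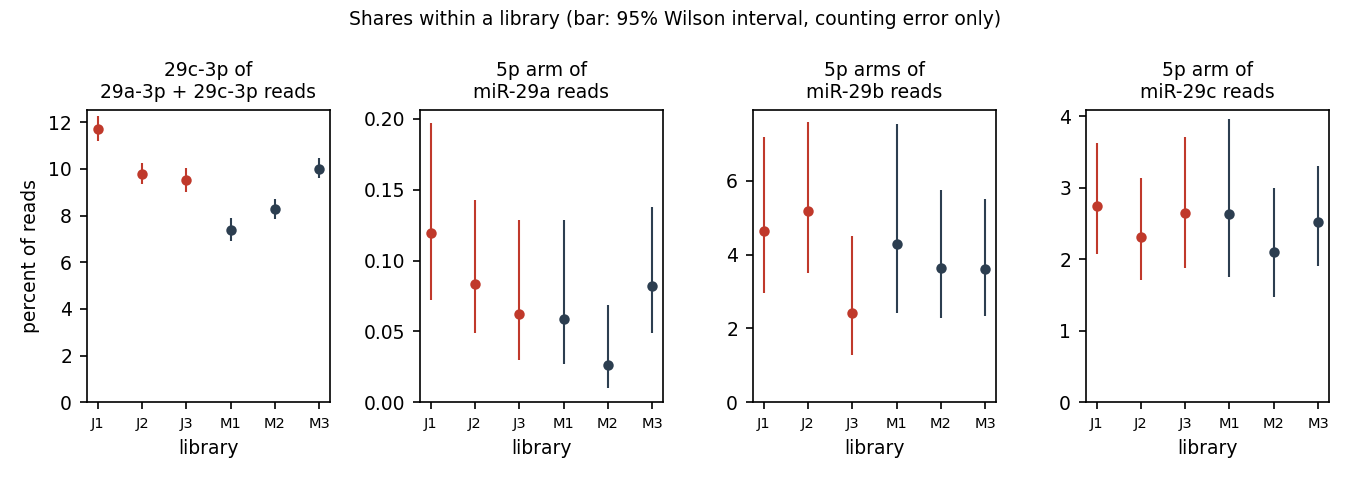
Shares of reads within each library (J1 to J3 red, M1 to M3 dark blue) with 95% Wilson intervals, from left to right mmu-miR-29c-3p among the mmu-miR-29a-3p and mmu-miR-29c-3p reads and the 5p share of the miR-29a, miR-29b and miR-29c reads, each panel with its own percent axis from 0. The left panel has narrow intervals, with M1 and M2 below the J libraries and M3 among them, and in each 5p panel the J and M points overlap.

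The names of the table's entries bear on how far these members can be told apart. Most mouse names end in a range of positions and a length. This length equalled that of the RefSeq mature sequence in 526 of the 530 mouse entries that could be compared. The range is 1 to 21 of 22 for mmu-miR-29a-3p and 1 to 16 of 22 for mmu-miR-29c-3p, and mmu-miR-29b-3p has none. What the range stands for is not given in the sources used here, and nor is the rule for reads that fit several miRNAs. A read that ended within the first 17 bases would fit mmu-miR-29b-3p and mmu-miR-29c-3p alike, so their shares depend on that rule. mmu-miR-29a-3p and mmu-miR-29c-3p differ by 1 base. Their shares would likewise depend on the mismatches allowed, which are not given either.

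The fold changes of the 3p strands were compared across ways of processing. mmu-miR-29a-3p stayed within 0.13 of the median of all miRNAs in each of the 16 alternatives (-0.13 to 0.09 relative to it). mmu-miR-29b-3p ranged from -0.13 to 0.19 relative to that median and mmu-miR-29c-3p from 0.10 to 0.43. None of the 109 values of the 7 members under the alternatives passed the thresholds.

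**Figure D4:**
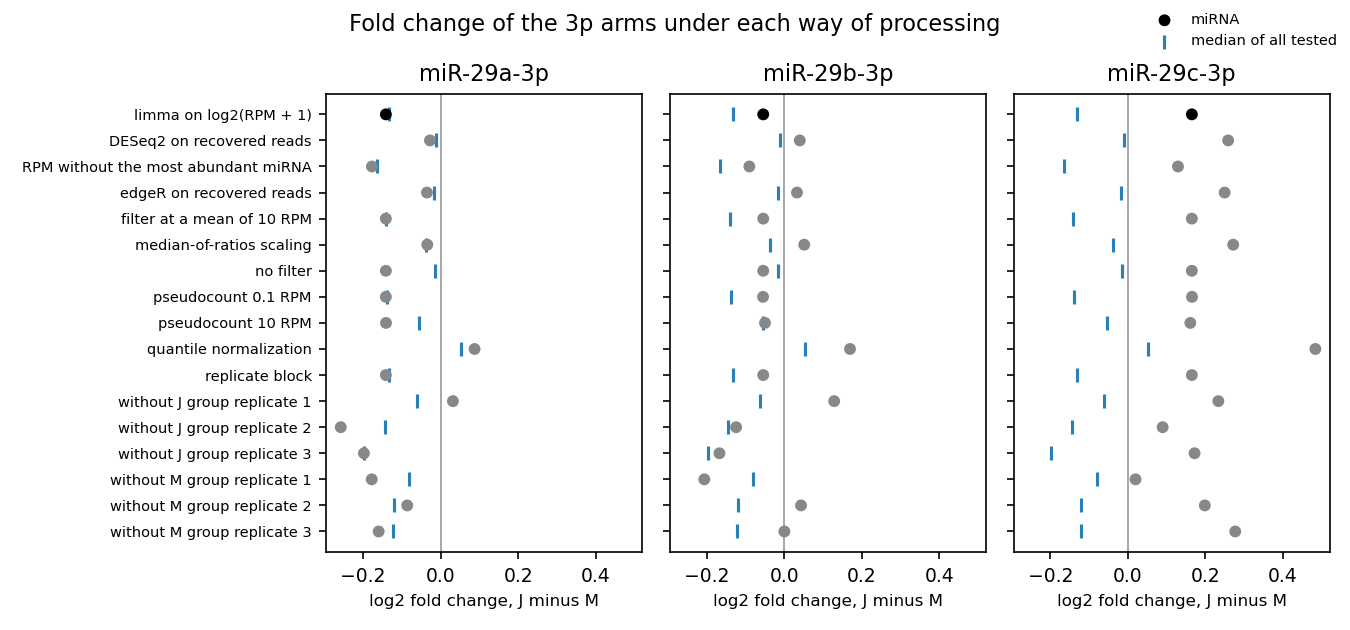
Log2 fold change, J minus M, of the miR-29 3p strands with limma on log2(RPM + 1) (black) and under 16 alternatives (grey), with the median of all tested miRNAs under the same setting (blue tick). mmu-miR-29a-3p lies within 0.13 of the median, mmu-miR-29b-3p lies on both sides of 0, and mmu-miR-29c-3p lies above 0 and above the median throughout, between 0.02 and 0.48.

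Among the 494 other mouse-named miRNAs tested, those with the pattern most like a 3p strand were found by the root mean square difference of log2(RPM + 1), each miRNA centred on its mean over the 6 libraries. For mmu-miR-29a-3p these were mmu-miR-3074-5p (0.07), mmu-miR-26a-5p (0.07) and mmu-miR-501-3p (0.10), against a median of 0.44 over all 494. mmu-miR-3074-5p has its position range written in reverse order in the table, and which strand its reads come from was not tested. For mmu-miR-29b-3p they were mmu-miR-26a-5p (0.11), mmu-miR-125a-5p (0.13) and mmu-miR-501-3p (0.13). For mmu-miR-29c-3p they were mmu-miR-574-3p (0.08), mmu-miR-345-3p (0.08) and mmu-miR-10a-5p (0.11). mmu-miR-26a-5p, near both mmu-miR-29a-3p and mmu-miR-29b-3p, was likewise lowest in J group replicate 1 (12075 RPM) and highest in M group replicate 2 (18801 RPM).

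Other miRNAs known for insulin action or obesity in the liver were examined beside the family. Of 11 such miRNAs, all tested, 0 passed the thresholds in either direction (5.29% of all tested miRNAs did), and their median log2 fold change was -0.15 beside -0.13 for all 548. The count was 1 of 11 with the replicate block and 1 of 11 without J group replicate 2. The smallest p belonged to mmu-miR-143-3p, which impairs insulin signalling in obese liver and is also one of the stromal markers, with 10128 ± 1798 against 13772 ± 4360 RPM (J against M, SD, n = 3 each, log2 fold change -0.41, adjusted p = 0.71 by limma). mmu-miR-103-3p, a repressor of insulin sensitivity, followed with 1696 ± 98.1 and 2144 ± 456 RPM (log2 fold change -0.32, adjusted p = 0.71). Without M group replicate 1 these values were -0.17 and -0.15.

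Of 11 miRNAs known for stellate cells or fibrosis, 10 were tested. mmu-miR-199a-3p has no entry of that name, but RefSeq gives mmu-miR-199b-3p the same mature sequence, and that entry, looked up after its values were seen, had 760 ± 32.8 against 860 ± 174 RPM (J against M, SD, n = 3 each, log2 fold change -0.16, adjusted p = 0.81 by limma) with overlapping groups. Of the 10, 1 was higher and 3 were lower in the J group past the thresholds, against 5.29% of all tested miRNAs. Their median log2 fold change was -0.50 beside -0.13 for all 548, and -0.26 beside -0.08 without M group replicate 1. The study selected several of these, mmu-miR-30a-5p among them, on the same libraries, so the count is not independent evidence of a direction, and with quantile normalization 1 of the 10 passed. mmu-miR-30a-5p, known to restrain fibrosis, was the higher one, with 45276 ± 6023 against 29507 ± 1741 RPM (SD, n = 3 each, log2 fold change 0.61, adjusted p = 0.42 by limma). mmu-miR-199a-5p, made by stellate cells, had 675 ± 43.8 against 1040.5 ± 42.8 RPM (log2 fold change -0.63, adjusted p = 0.43). mmu-miR-214-3p from the same noncoding RNA had 20.5 ± 1.12 against 30.6 ± 2.40 RPM (log2 fold change -0.55, adjusted p = 0.71), past the thresholds in 3 of 16 alternatives. mmu-miR-146a-5p, an inhibitor of inflammatory signalling, had 241 ± 18.7 against 1009 ± 721 RPM (log2 fold change -1.79, adjusted p = 0.55), and -1.24 without M group replicate 1, where the call held. The leukocyte markers summed to 763 to 1108 RPM in the J libraries and 1383 to 4782 RPM in the M libraries. Of them, only mmu-miR-342-3p taken singly did not overlap between the groups. Without M group replicate 1, 0 of 6 passed the thresholds. The 4 stromal markers, of which mmu-miR-143-3p is the most abundant and mmu-miR-199a-5p and mmu-miR-214-3p are members, summed to 12582 to 16890 RPM in the J group against 16765 to 25242 RPM in the M group, so the sums overlapped. Of these 4, 3 were past the thresholds and lower in the J group, a count that ranged from 0 (quantile normalization) to 3 over the 16 alternatives, with mmu-miR-145a-5p past them in 10 and mmu-miR-214-3p in 3. The part of either marker list in these values was not tested.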

How the data were processed

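Small RNA libraries from liver (3 J group, 3 M group) were made with a NEBNext kit and sequenced on an Illumina HiSeq. The authors removed low-quality reads, matched the unique ones to Rfam and miRBase and deposited RPM, the reads of each miRNA per 1000000 miRNA reads, for each library separately. The submitters' processing notes name mm9, and the mismatch rule is not given in the sources used here. Of the values above 0, 100% were whole multiples of the RPM of 1 read (within 0.01 read), which gave the reads. Positions and sequences come from RefSeq and GENCODE on GRCm38, and the table has no coordinates.

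Groups were taken from the sample titles. RPM was fitted as log2(RPM + 1) by limma 3.58.1 in R 4.3.3 (lmFit, eBayes with trend, two-sided) over the 548 miRNAs with a mean above 1 RPM in a group. P-values were adjusted by Benjamini-Hochberg over the 548. Alternatives took the recovered reads into edgeR 4.0.16 or into DESeq2 1.42.0, or used other scalings, filters and pseudocounts, a replicate term and each library left out. Fits were tested on simulated data. Nearest miRNAs were the 3 of smallest distance per 3p strand, and the list miRNAs named were those past the thresholds or, with fewer than 2, the 2 of smallest p. The members and lists were chosen with earlier results of these data known. Python 3.11.15, numpy 2.4.6, pandas 2.3.3, scipy 1.17.1 and matplotlib 3.10.9 were used. No pairing of the mice by replicate number is described (correlations of deviations between libraries of the same number -0.006 to 0.058).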

Additional observations from a re-analysis of the deposited data

How the results depend on the processing

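Of the 7 members, 0 passed the thresholds under any of 16 alternatives (the filter at a mean of 10 RPM tests 4 of them). The directions of mmu-miR-29a-5p, mmu-miR-29c-3p and mmu-miR-29c-5p and of the shares of miR-29c-3p and miR-29a-5p held under each alternative that tested them. The log2 fold change of mmu-miR-29a-3p changed sign with quantile normalization (0.0876). mmu-miR-29b-3p did so with DESeq2 (0.0402), edgeR (0.0329), median-of-ratios scaling (0.0516) and quantile normalization (0.17), mmu-miR-29b-2-5p with the same alternatives (0.14, 0.13, 0.0359 and 0.10), and mmu-miR-29b-1-5p with these (0.13, 0.10, 0.0404 and 0.0590) and with an added 10 RPM (0.00658). With a library left out, the ranges were -0.26 to 0.0318 for mmu-miR-29a-3p, -0.21 to 0.13 for mmu-miR-29b-3p, -0.27 to 0.25 for mmu-miR-29b-2-5p and -0.22 to 0.29 for mmu-miR-29b-1-5p. In percentage points, J minus M, they were -0.33 to 1.06 for the 5p share of miR-29b, -0.00912 to 0.28 for that of miR-29c and -0.0843 to 0.20 for the share of mmu-miR-29b-3p. The cause was not tested.

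The count of all miRNAs past the thresholds (29) was 45 with edgeR and 21 to 45 with a library left out, the highest without M group replicate 2. Median-of-ratios scaling gave 17 higher and 13 lower, and quantile normalization 17 and 12, in place of 8 and 21. With the replicate block the count was 27 and 0 members were called. The mice were divided into the groups at random, and no pairing by replicate number is described. By deviations from the group mean, 1 of 6 libraries was closest to the library of its own number. So few libraries cannot decide whether the numbers pair the mice. Few reads limit the 5p strands of miR-29a and miR-29b (2 to 17 per library).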

Other observations

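Within the family, the patterns of mmu-miR-29a-3p and mmu-miR-29b-3p over the 6 libraries were nearer to each other (root mean square difference of the centred log2 values 0.14) than either was to mmu-miR-29c-3p (0.23 and 0.19). mmu-miR-29b-3p ranked 10 among the 494 miRNAs compared with mmu-miR-29a-3p, and mmu-miR-29c-3p ranked 61. These are descriptions over 6 libraries that share each library's depth and scaling.

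J group replicate 1 had the lowest mmu-miR-29a-3p level of the 6 libraries (2909 RPM) together with the highest 5p share of miR-29a (0.119%, 15 of 12564 reads, 95% Wilson interval 0.0724% to 0.197%). It also had the highest share of mmu-miR-29c-3p among the 3p reads of both genes (11.7%). M group replicate 2 had the highest mmu-miR-29a-3p level (4401 RPM) and the lowest 5p share (0.0266%, 4 of 15015 reads, 95% Wilson interval 0.0104% to 0.0685%). These libraries were picked as the highest and the lowest of 6, and the 3p reads are the main part of the denominator, so a low mmu-miR-29a-3p level raises the share by construction.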
